A study of Mus musculus with 12 samples.

Results

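The transcription factors examined here are 10 regulators of sensory neuron identity in the dorsal root ganglion (DRG): Isl1, Pou4f1, Pou4f2, Runx1, Runx3, Prdm12, Tlx3, Prrxl1, Shox2 and Maf. They were taken by name from a table of reads counted on 44345 gene names, and all 10 were found and passed the filter on low counts, as did 16238 genes in all. RNA came from whole sciatic (L4-L6) DRG of C57BL/6 mice aged 5 to 8 weeks, in 4 groups of 3 samples, each sample pooled from 2 mice. Mice of the first group had standard housing and sham surgery (SH Sham), and those of the second had standard housing and sciatic nerve axotomy, the cutting of the sciatic nerve (SH SNA). The third group had environmental enrichment, that is, more varied housing, and sham surgery (EE Sham), and the fourth had enrichment and axotomy (EE + SNA). Housing lasted 10 days before surgery and the ganglia were taken 24 h after it. No transgene, deletion or drug is named for these samples. EE Sham is described in the paper as coming from data published before, and the labels name no batch, so a difference of EE Sham from the other groups cannot be told apart from one between datasets.

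The neurons of the DRG carry touch, temperature, itch, pain and body position to the spinal cord. They arise from the neural crest as one broad type, which the homeodomain proteins ISL1 and BRN3A (Pou4f1) help to leave the progenitor state. Further factors then divide the nociceptors (PRDM12, PRRXL1, TLX3 and RUNX1) from proprioceptors (RUNX3) and touch neurons (SHOX2, MAF), and several of them are still made in the adult ganglion. The question put to the data was what 24 h of axotomy, 10 days of EE, or both did to the RNA of these factors.

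With TMM scaling of the libraries, all 10 factors had lower fitted levels after SNA than after sham surgery, in SH and in EE, and with scaling to neuronal genes 8 or 9 of 10 did. With the 6 SNA samples set against the 6 sham samples and housing as a second term, 7 of 10 fell: Pou4f2 by 40.0%, Shox2 by 31.7%, Prdm12 by 25.6%, Isl1 by 24.7%, Runx3 by 22%, Prrxl1 by 18.3% and Pou4f1 by 12.5%. Runx1, Tlx3 and Maf had log2 fold changes of −0.14, −0.14 and −0.08 and did not pass. In EE Sham none of the 10 passed. A call here is an adjusted p below 0.05 in the quasi-likelihood test of edgeR, two-sided, with the Benjamini-Hochberg adjustment over all 16238 genes, and adjusted p means this value throughout. By this rule 11% of all genes tested were called lower after SNA in the same comparison and 22.4% in either direction. The median log2 fold change was −0.33 over the 10 factors and 0.01 over all genes tested. At the unadjusted p of 0.05 that the study used, 8 of 10 factors were lower, against 16.6% of all genes.

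Promoter sequences are shown for the factors that were called in each comparison of SNA with sham (Isl1, Prdm12 and Shox2) and for those with a match to a searched motif (Runx3, the upstream of its 2 promoters, and Prrxl1). They are the 250 bases before the start of the gene in the RefSeq annotation of GRCm38.p6, read 5′ to 3′ on the strand of the gene. GENCODE starts Prrxl1 further upstream, at 32599407, so the Prrxl1 window lies inside the gene as GENCODE places it. Capitals mark matches to TGTGGT, a core bound by RUNX proteins, or to its reverse complement.
Isl1 promoter, chr13:116309689-116309938, minus strand: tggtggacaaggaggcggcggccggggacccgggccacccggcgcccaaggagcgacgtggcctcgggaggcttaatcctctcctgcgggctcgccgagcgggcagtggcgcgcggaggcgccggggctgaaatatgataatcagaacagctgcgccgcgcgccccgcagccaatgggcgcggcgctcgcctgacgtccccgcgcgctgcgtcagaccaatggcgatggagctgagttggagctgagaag
Prdm12 promoter, chr2:31639787-31640036, plus strand: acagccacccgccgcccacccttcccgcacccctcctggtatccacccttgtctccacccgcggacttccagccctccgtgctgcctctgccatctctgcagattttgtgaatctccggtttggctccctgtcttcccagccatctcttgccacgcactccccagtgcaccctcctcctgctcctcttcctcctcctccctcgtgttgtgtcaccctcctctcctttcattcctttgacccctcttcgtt
Shox2 promoter, chr3:66981772-66982021, minus strand: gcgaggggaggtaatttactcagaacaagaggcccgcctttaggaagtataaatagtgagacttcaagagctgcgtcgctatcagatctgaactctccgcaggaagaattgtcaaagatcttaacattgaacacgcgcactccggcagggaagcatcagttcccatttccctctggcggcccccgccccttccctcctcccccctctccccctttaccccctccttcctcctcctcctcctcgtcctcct
Runx3 promoter, chr4:135120395-135120644, plus strand: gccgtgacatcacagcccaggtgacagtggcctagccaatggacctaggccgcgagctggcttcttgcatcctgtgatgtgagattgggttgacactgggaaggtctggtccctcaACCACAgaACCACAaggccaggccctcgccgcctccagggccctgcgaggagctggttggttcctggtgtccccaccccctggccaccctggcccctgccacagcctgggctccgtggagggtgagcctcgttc
Prrxl1 promoter, chr14:32599677-32599926, plus strand: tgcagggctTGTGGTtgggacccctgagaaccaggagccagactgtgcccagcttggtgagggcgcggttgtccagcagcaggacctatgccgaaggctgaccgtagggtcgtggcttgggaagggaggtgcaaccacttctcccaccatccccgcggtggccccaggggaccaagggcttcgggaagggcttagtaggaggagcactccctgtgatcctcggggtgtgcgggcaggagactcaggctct

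RefSeq promoters were matched for 9 of the 10 factors, 11 promoters in all, since Runx1 and Runx3 each have 2. The RUNX core TGTGGT was found in 2 of the 11, both shown above. It was found at 2 places of the Runx3 promoter, on the opposite strand, from positions −134 and −126 relative to the RefSeq start. In the Prrxl1 promoter it was found at 1 place, from position −241 relative to the RefSeq start. On either strand, 14.05% of 32851 mouse promoters of this length hold this core. The homeodomain core TAATTA (4.84% of all promoters), the AP-1 motif TGANTCA (6.75%) and TGCTGA, one side of the element bound by MAF proteins (16.08%), were not found in these windows. The AP-1 and MAF letters can share bases. The promoters of the factors were rich in G and C, with a median of 65.2% (45.6% in the upstream Runx1 promoter to 78.8% in the second Runx3 promoter) and 52.4% over all promoters.

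Reads on genes numbered 11343579 in the shallowest sample and 22871460 in the deepest, EE + SNA replicate 2. The injury genes Gal, Jun, Sox11, Gap43, Sprr1a and Atf3 were higher in both SNA groups than in SH Sham, with adjusted p below 0.05 for 6 of 6 and log2 fold changes of 0.37 to 2.12 in SH SNA and 0.24 to 2.02 in EE + SNA, as the surgery labels have it. All 12 genes of the pan-neuronal and sensory neuron list were found. Their summed level, in CPM, which are read counts scaled to one library total, was 24241 to 25364 in SH Sham, 22062 to 23195 in SH SNA, 22736 to 23729 in EE Sham and 21397 to 22961 in EE + SNA. After SNA, pooled over housing, 6 of these 12 fell and 1 rose (Stmn2), against 11% and 11.4% of all genes tested, with a median log2 fold change of −0.16. In SH SNA against SH Sham, where 5.17% of all genes tested were called lower, 2 of the 12 were called, both lower. They were Rbfox3 (log2 fold change −0.36, adjusted p = 0.00106) and Nefh (−0.32, adjusted p = 0.00726). Fewer neurons and less RNA per neuron cannot be told apart in RNA of whole ganglia. Markers of other cells moved the other way: 5 of 6 Schwann cell genes and 3 of 7 macrophage genes tested rose after SNA, where 11.4% of all genes tested rose, and all members of both lists had positive log2 fold changes. The summed macrophage markers lay at 48.3 to 53.4 CPM in SH Sham, 54.9 to 75.0 in SH SNA, 49.3 to 54.1 in EE Sham and 56.8 to 90.3 in EE + SNA, where replicate 3 was highest, and the Schwann cell markers at 7344 to 8910, 7838 to 11405, 6542 to 9095 and 9463 to 12277 CPM in the same order. The 5 skeletal muscle markers reached 816 CPM in SH SNA replicate 2 and at most 140 CPM in any other sample. The 6 neutrophil markers reached 592 CPM in EE + SNA replicate 3 and at most 258 CPM in any other sample. Of the other lists, called pooled over housing were 2 of 6 satellite glia, 1 of 5 neutrophil, 1 of 3 lymphocyte, 1 of 4 endothelial, 2 of 5 fibroblast, 0 of 1 sympathetic, 0 of 5 muscle, 0 of 2 epidermal and 0 of 3 spinal cord genes tested, each of those called being higher. The part of these markers in the results was not tested, except that reads were also scaled to the pan-neuronal list, a choice made after the data were seen.

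Levels were compared between factors in FPKM, which are read counts divided by gene length and library size, as deposited by the authors. In SH Sham the order was Prdm12 (48.3 ± 2.9, mean ± SD, n = 3), Pou4f1 (47.3 ± 1.6), Isl1 (27.3 ± 1.8), Tlx3 (25.6 ± 0.93), Prrxl1 (20.05 ± 2.97), Maf (9.25 ± 0.77), Shox2 (7.88 ± 0.67), Runx1 (7.66 ± 0.54), Pou4f2 (2.35 ± 0.33) and Runx3 (2.23 ± 0.17). The samples of Prdm12 and Pou4f1, of Isl1 and Tlx3, of Maf and Shox2, of Shox2 and Runx1, and of Pou4f2 and Runx3 overlapped, and those of the other neighbours did not. In both SNA groups Pou4f1 stood above Prdm12, Tlx3 above Isl1 and Runx1 above Shox2. Pou4f1 and Prdm12 overlapped in EE + SNA but not in SH SNA, Tlx3 and Isl1 overlapped in both, and Runx1 and Shox2 overlapped in neither. In EE Sham the order was that of SH Sham except that Pou4f1 preceded Prdm12 and Runx1 preceded Shox2, both with overlap. Pou4f2 was the lowest of all in EE + SNA (1.16 ± 0.16), with no overlap with Runx3 (1.65 ± 0.24). The FPKM imply gene lengths close to the exons of the GENCODE annotation, except for Runx1 (7408 against 12025 bases), Prrxl1 (1558 against 4171) and Pou4f1 (4042 against 4672), so these 3 stand higher than their full exon length would place them.

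**Figure D1:**
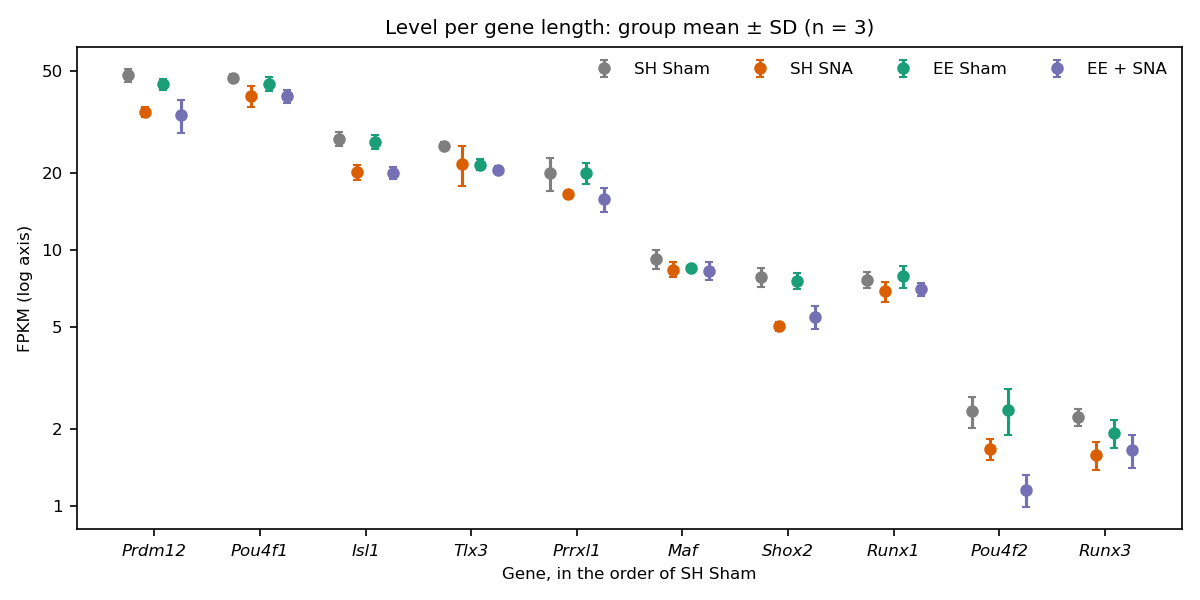
FPKM (log axis) of the 10 factors in the 4 groups, as group mean ± SD over 3 samples, in the order of SH Sham. The 2 factors at the left lie near 48 in SH Sham and Pou4f2 and Runx3 at the right lie near 2.

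Isl1 encodes a LIM homeodomain protein present in nearly all DRG neurons and needed for nociceptor development. The gene (ENSMUSG00000042258) lies on chromosome 13 of GRCm38 from 116298281 to 116309689, on the minus strand, downstream of the promoter shown above. In CPM, scaled between libraries by TMM, replicates 1 to 3 had 117, 102 and 105 in SH Sham, 86.6, 79.1 and 76.2 in SH SNA, 116, 97.8 and 104 in EE Sham, and 84.5, 81.0 and 75.7 in EE + SNA. Every SNA sample was below every sham sample, whatever the housing. Isl1 had a log2 fold change of −0.42 in SH SNA against SH Sham (standard error 0.068, adjusted p = 0.00167), −0.43 in EE + SNA against SH Sham (0.070, adjusted p = 0.00205) and −0.40 in EE + SNA against EE Sham (0.076, adjusted p = 0.0104). These calls held with each sample left out in turn.

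Prdm12 encodes a chromatin-associated zinc finger protein on which nociceptors depend, and mutations of the human gene cause congenital insensitivity to pain. Prdm12 (ENSMUSG00000079466) lies on the plus strand of chromosome 2, from 31640037 to 31655795. Its CPM in replicates 1 to 3 were 120, 111 and 126 in SH Sham, 82.0, 90.6 and 86.6 in SH SNA, 116, 103 and 113 in EE Sham, and 87.9, 93.8 and 71.3 in EE + SNA. The SNA samples were again below all sham samples, and EE + SNA replicate 3 was the lowest. Prdm12 had the smallest adjusted p of the 10 in SH SNA (4.35e-04), where its log2 fold change was −0.46 (standard error 0.061). It was −0.50 in EE + SNA against SH Sham (0.091, adjusted p = 0.00392) and −0.39 against EE Sham (0.096, adjusted p = 0.0377). The last call was lost without EE Sham replicate 1 or 3, or without EE + SNA replicate 1 or 3 (adjusted p = 0.0986, 0.139, 0.0874 and 0.0749). It was also lost with limma on log2(FPKM + 1) or log2(FPKM + 0.1) (adjusted p = 0.0863 and 0.0859) and with scaling to the pan-neuronal list (adjusted p = 0.104).

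Shox2 encodes a homeodomain protein that helps to set the TrkB-bearing touch neurons apart. The gene (ENSMUSG00000027833, chromosome 3, 66971727 to 66981771, minus strand) shares 153 of its 3311 exon bases with Rsrc1 on the other strand, and the strand setting of the counting is not given in the sources used here. Replicates 1 to 3 had 28.1, 26.3 and 23.5 CPM in SH Sham, 17.1, 16.1 and 17.03 in SH SNA, 27.8, 23.3 and 24.7 in EE Sham, and 20.4, 16.2 and 18.5 in EE + SNA. No SNA sample reached a sham sample. Shox2 had the largest fall of the 10 in SH SNA, with a log2 fold change of −0.63 (standard error 0.094, adjusted p = 0.00101). In EE + SNA it was −0.52 against SH Sham (0.10, adjusted p = 0.00665) and −0.48 against EE Sham (0.11, adjusted p = 0.0254). Against EE Sham the call was lost without EE Sham replicate 1 or 3, or EE + SNA replicate 2 or 3 (adjusted p = 0.0832, 0.0843, 0.0817 and 0.0506), and with limma on log2(FPKM + 1) or log2(FPKM + 0.1) (adjusted p = 0.0523 and 0.0507).

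Pou4f2 encodes BRN3B, a POU homeodomain protein best known from retinal ganglion cells and made in part of the sensory neurons. The gene (ENSMUSG00000031688) lies on chromosome 8 from 78433010 to 78436645, on the minus strand. It was among the least abundant factors, with 40 to 146 reads per sample. Its CPM in replicates 1 to 3 were 8.57, 7.60 and 6.42 in SH Sham, 5.05, 6.00 and 5.17 in SH SNA, 9.29, 5.84 and 8.04 in EE Sham, and 3.56, 4.31 and 3.38 in EE + SNA. The EE + SNA samples were the 3 lowest of the 12, while SH SNA lay below SH Sham but overlapped the lowest EE Sham sample. Against SH Sham its log2 fold change was −0.98 in EE + SNA (standard error 0.17, adjusted p = 0.00237) and −1.02 against EE Sham (0.19, adjusted p = 0.0104), the latter with an adjusted p of 0.0561 without EE Sham replicate 3. In SH SNA it was −0.48 (0.15, adjusted p = 0.0568). Without SH Sham replicate 3 the adjusted p in SH SNA was 0.0386.

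Pou4f2 was also the only one of the 10 with an unadjusted p below 0.05 in EE + SNA against SH SNA. Pou4f2 had a log2 fold change of −0.51 there (standard error 0.17, 95% interval −0.87 to −0.14). Pou4f2 also had all 3 EE + SNA samples lower than all SH SNA samples, as did 5.09% of all genes tested. It did not pass the correction (adjusted p = 0.989), and at the unadjusted threshold 1.94% of all genes tested were lower. Adjusted, 0% of all genes were called in this comparison. Any difference of the SNA change between the housings takes in EE Sham, where housing and a difference between datasets cannot be told apart. Whether the SNA difference itself depended on housing was tested with an interaction term over the 12 samples. For Pou4f2 it was −0.53 (standard error 0.25, 95% interval −1.05 to −0.00121), just past the unadjusted threshold and far from the adjusted one (adjusted p = 1), with 1.25% of all genes at an unadjusted p below 0.05 in this direction and 0% called after adjustment. With DESeq2 the unadjusted p of this term was above 0.05, and with single samples left out the term ran from −0.70 without EE Sham replicate 2 to −0.39 without EE Sham replicate 1, the latter also with an unadjusted p above 0.05. The other 9 factors had interaction terms between −0.06 and 0.24, none with p below 0.05. Pou4f1, the paralog of Pou4f2, shares 23 of its 4623 stretches of 50 bases with it (0.5%), and Pou4f2 none with Pou4f3.

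**Figure D2:**
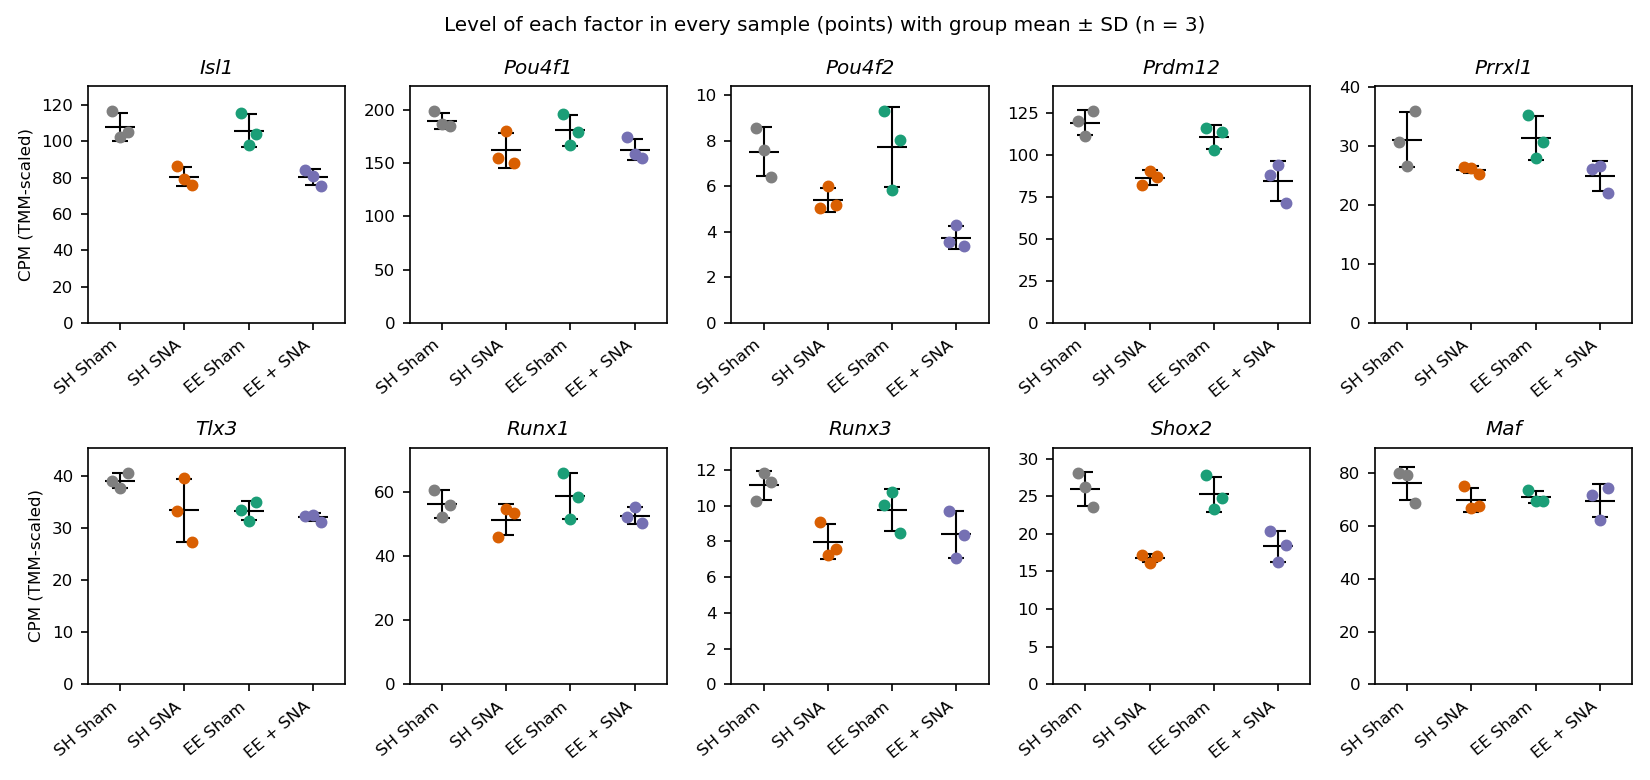
CPM (TMM-scaled) of each factor in every sample, with the group mean ± SD over 3 samples; each panel has its own axis from 0. For Isl1, Prdm12 and Shox2 every SNA sample lies below every sham sample, and Pou4f2 was lowest in EE + SNA, at 3.38 to 4.31.

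Pou4f1, the gene of BRN3A, works with Isl1 in the step from a dividing progenitor to a sensory neuron. Pou4f1 (ENSMUSG00000048349) lies on the minus strand of chromosome 14 from 104461676 to 104467999. It had the most reads of the 10, 1889 to 3654 per sample. Replicates 1 to 3 had 199, 187 and 185 CPM in SH Sham, 155, 180 and 150 in SH SNA, 196, 167 and 180 in EE Sham, and 174, 159 and 155 in EE + SNA. Both SNA groups lay below SH Sham, and both overlapped EE Sham. The log2 fold change was −0.23 in SH SNA (standard error 0.069, adjusted p = 0.0540) and −0.23 in EE + SNA against SH Sham (0.065, adjusted p = 0.0387), so that the call and its absence rest on nearly equal differences. With DESeq2 the adjusted p in SH SNA was 0.0268, and without SH SNA replicate 2 it was 0.0108 in edgeR. The call in EE + SNA was lost without any of the 3 SH Sham samples (adjusted p = 0.0609 to 0.113), and without EE + SNA replicate 2 (0.0945) or 3 (0.0918). It was also lost with all 12 samples in one fit (adjusted p = 0.0684) and with scaling to the pan-neuronal list (−0.07, adjusted p = 0.524). Against EE Sham the log2 fold change was −0.16 (0.075, adjusted p = 0.254).

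Runx3 encodes a RUNT domain protein of the proprioceptors, and its RNA was low, with 86 to 175 reads per sample. Runx3 (ENSMUSG00000070691) lies on chromosome 4 from 135120652 to 135177990 on the plus strand. Replicates 1 to 3 had 10.3, 11.8 and 11.3 CPM in SH Sham, 9.10, 7.27 and 7.56 in SH SNA, 10.0, 10.8 and 8.45 in EE Sham, and 9.70, 7.09 and 8.38 in EE + SNA. The SNA groups lay below SH Sham and overlapped EE Sham. The log2 fold change in SH SNA was −0.47 (standard error 0.12, adjusted p = 0.0262), a call lost without SH Sham replicate 2 or 3 or SH SNA replicate 2 or 3 (adjusted p = 0.0931, 0.0746, 0.0799 and 0.0770). It was also lost with the replicate number as a replicate block (adjusted p = 0.0569), although the numbers did not pair these samples, with limma at either pseudocount (adjusted p = 0.0521 and 0.0566) and with scaling to the pan-neuronal list (adjusted p = 0.0832). In EE + SNA the log2 fold change was −0.43 against SH Sham (0.13, adjusted p = 0.0556) and −0.24 against EE Sham (0.15, adjusted p = 0.398). Without EE + SNA replicate 1 the adjusted p against SH Sham was 0.0433.

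Runx1, the relative of Runx3 that acts in non-peptidergic nociceptors, showed no such separation. Runx1 (ENSMUSG00000022952, chromosome 16, 92601466 to 92826149, minus strand) shares 106 exon bases with Gm26626 on the other strand. Its CPM ran from 52.2 to 60.8 in SH Sham, 45.9 to 54.8 in SH SNA, 51.7 to 66.1 in EE Sham and 50.3 to 55.5 in EE + SNA, and all groups overlapped. The log2 fold changes were −0.13 in SH SNA, −0.10 in EE + SNA against SH Sham and −0.16 against EE Sham, and none had an adjusted p below 0.3. Pooled over housing it was −0.14 (95% interval −0.27 to −0.01, adjusted p = 0.104). Without EE Sham replicate 2 the pooled adjusted p was 0.0356. The pooled interval of Runx3 was −0.57 to −0.15, and the difference between the 2 genes was not tested.

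Prrxl1 and Tlx3 encode homeodomain proteins of nociceptors and their relay neurons in the dorsal horn. Prrxl1 (ENSMUSG00000041730, chromosome 14, 32599407 to 32649246, plus strand) had 30.7, 26.6 and 35.8 CPM in replicates 1 to 3 of SH Sham, 26.4, 26.2 and 25.2 in SH SNA, 35.3, 28.0 and 30.7 in EE Sham, and 26.1, 26.6 and 22 in EE + SNA. The SNA samples lay below the sham samples, though the gap between the highest of them and SH Sham replicate 2 was under 1%. The log2 fold change was −0.26 in SH SNA (adjusted p = 0.134), −0.32 in EE + SNA against SH Sham (adjusted p = 0.0783) and −0.33 against EE Sham (adjusted p = 0.0956). Without SH Sham replicate 2 the first and second adjusted p were 0.0496 and 0.0359, and without EE Sham replicate 2 the last was 0.0478. Tlx3 (ENSMUSG00000040610, chromosome 11, 33200752 to 33203589, minus strand) had 39.1, 37.7 and 40.6 CPM in SH Sham, 33.3, 39.5 and 27.4 in SH SNA, 33.5, 31.4 and 35.0 in EE Sham, and 32.4, 32.6 and 31.2 in EE + SNA. Its SH SNA samples spread across the levels of all other groups, while EE Sham and EE + SNA lay below SH Sham and overlapped each other. The Tlx3 log2 fold change was −0.29 in EE + SNA against SH Sham (standard error 0.065, adjusted p = 0.0135, and 0.0548 without SH Sham replicate 3). With all 12 samples in one fit its adjusted p was 0.0684, and scaled to the pan-neuronal list its value was −0.13 (adjusted p = 0.238). In SH SNA it was −0.23 (0.11, adjusted p = 0.224), and without SH SNA replicate 2, the sample with the most muscle RNA, adjusted p was 0.0264 there and 0.0451 pooled over housing. Against EE Sham the EE + SNA value was −0.06 (95% interval −0.22 to 0.10).

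Maf encodes c-MAF, a leucine zipper protein of rapidly adapting touch neurons that is also made in macrophages. Maf (ENSMUSG00000055435, chromosome 8, 115682942 to 115707794, minus strand) shares 440 exon bases with Gm15655 on the other strand. Its CPM ran from 68.7 to 80.1 in SH Sham, 66.8 to 75.0 in SH SNA, 69.5 to 73.7 in EE Sham and 62.4 to 74.4 in EE + SNA, with overlap of all groups. The log2 fold change was −0.12 in SH SNA, −0.14 in EE + SNA against SH Sham and −0.04 against EE Sham, and no adjusted p was below 0.3. Scaled to the pan-neuronal list, Maf had values of 0.01, 0.02 and 0.02 in SH SNA, in EE + SNA against SH Sham and pooled over housing.

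By comparison, 4 of 10 factors were called in SH SNA against SH Sham (Isl1, Prdm12, Runx3 and Shox2), where 5.17% of all genes tested were called lower, and 7 of 10 at the unadjusted threshold, where 11.8% were. The samples of 7 of 10 did not overlap, all SNA below sham, as did 15.1% of all genes. Without SH SNA replicate 2, the calls were 5 (Isl1, Pou4f1, Prdm12, Shox2 and Tlx3). Genes called lower then numbered 694, against 839 with all samples. In EE + SNA against SH Sham 6 of 10 were called (Isl1, Pou4f1, Pou4f2, Prdm12, Shox2 and Tlx3), with 5.63% of all genes, and 8 of 10 unadjusted, with 12.6%. Here 8 of 10 did not overlap, against 15.7% of all genes. Without EE + SNA replicate 3, the sample with the most macrophage and neutrophil marker RNA, 5 of the 6 were called (all but Pou4f1). Genes called lower then numbered 695, against 915 with all samples. In EE + SNA against EE Sham 4 of 10 were called (Isl1, Pou4f2, Prdm12 and Shox2), with 2.33% of all genes, and 5 of 10 unadjusted, with 10.4%. The 5 were also those that did not overlap, against 12.3% of all genes. Without EE + SNA replicate 3 the calls were 2 (Isl1 and Pou4f2), without EE Sham replicate 1 also 2, and without EE Sham replicate 3 only 1. Of all genes tested, 212, 198 and 163 were called lower in these fits, in the same order, against 378 with all samples. No factor was called higher. The median log2 fold changes over the 10 were −0.34, −0.37 and −0.29, and those over all genes tested lay between 0.00386 and 0.00466. These comparisons share SH Sham or EE + SNA samples and are therefore not independent.

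**Figure D3:**
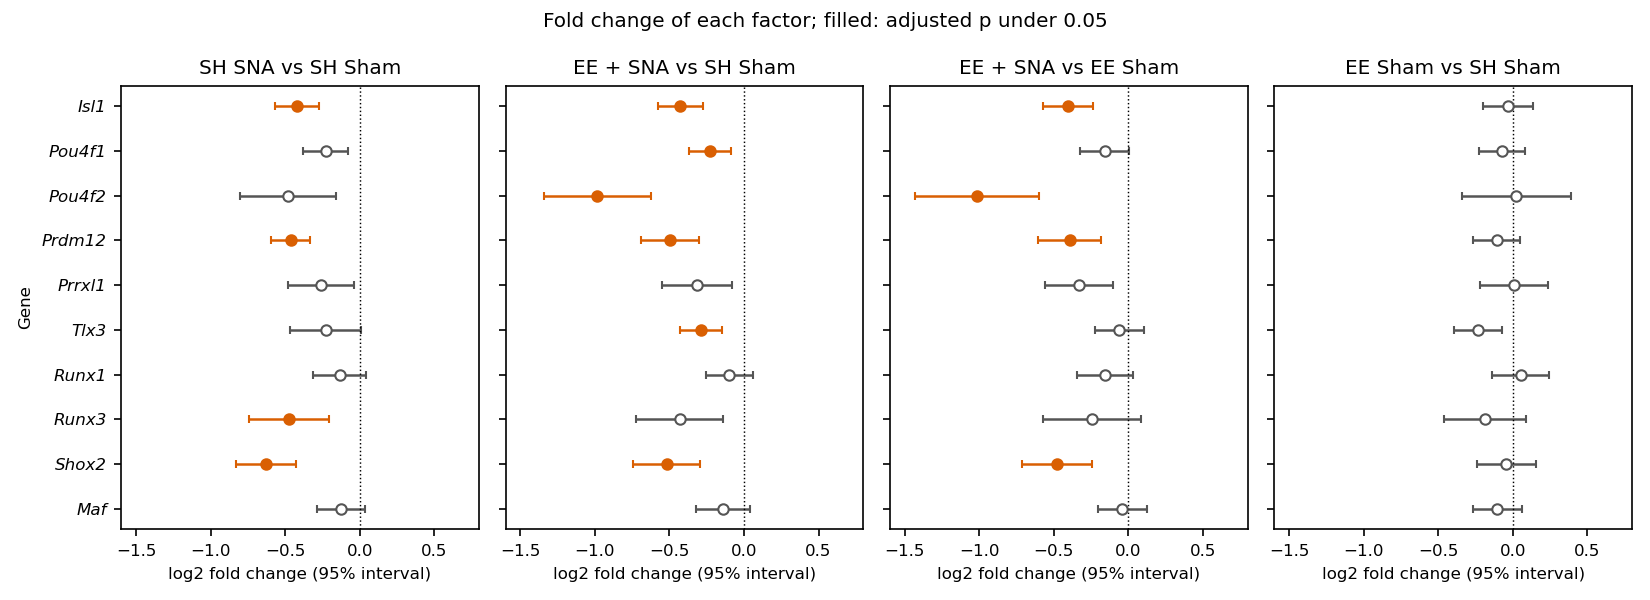
Log2 fold change of each factor with its 95% interval in 4 comparisons, where filled points have an adjusted p below 0.05 in edgeR. With TMM scaling all 10 lie left of 0 in the 3 comparisons of SNA with sham, and none is filled in EE Sham against SH Sham.

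Scaling the reads to the summed pan-neuronal list put the median log2 fold change of all genes at 0.14 in SH SNA, 0.16 in EE + SNA against SH Sham and 0.11 pooled over housing, and Isl1, Pou4f2, Prdm12 and Shox2 were still called lower in the pooled comparison, where 4.90% of all genes were called lower and 24.6% higher on this scale (11% and 11.4% with TMM). Their log2 fold changes were −0.31 (adjusted p = 6.35e-04), −0.64 (0.00275), −0.33 (0.00114) and −0.45 (1.62e-04). Pou4f1 (−0.10, adjusted p = 0.177), Runx3 (−0.26, adjusted p = 0.0522) and Prrxl1 (−0.19, adjusted p = 0.0768) no longer passed. On this scale 9 of 10 were lower pooled over housing, with Maf the exception, and in EE + SNA against EE Sham 8 of 10 were.

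EE alone left the factors within the spread of the samples for the most part. In EE Sham against SH Sham 0 of 10 passed the adjusted threshold in edgeR, where 0.00616% of all genes were called (1 gene), and DESeq2 called 0 of the 10 as well. At an unadjusted p below 0.05 there was 1 factor, Tlx3, with a log2 fold change of −0.23 (standard error 0.074, 95% interval −0.39 to −0.07, adjusted p = 1) and 3 of 3 EE Sham samples below all SH Sham samples. In this comparison 1.58% of all genes were lower at that threshold, and 4.32% had all EE Sham samples below all SH Sham samples. The other 9 values lay between −0.19 (Runx3) and 0.05 (Runx1), and their 95% intervals reached from −0.46 to 0.39. By the correlations given with the methods, the replicate numbers were taken as pairing these 2 groups, though the labels describe no pairing. With the replicate block the count of factors was 0 adjusted and 1 unadjusted. Of all genes, 0.179% passed adjusted with the block (29 genes) and 5.22% unadjusted, against 2.97% without it. In EE + SNA against SH SNA 0 of 10 passed after adjustment, with edgeR or DESeq2, and the 9 factors other than Pou4f2 lay between −0.06 (Tlx3) and 0.12 (Shox2), with intervals from −0.31 to 0.39.

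The factors were set beside 36 further transcription factors of sensory neurons, of which 32 passed the filter. After SNA, pooled over housing, 12 of 32 fell and 2 rose, with a median log2 fold change of −0.13, while 11% of all genes tested fell and 11.4% rose. In SH SNA 8 fell and 1 rose, against 5.17% and 6.06% of all genes, and in EE + SNA against SH Sham 7 fell and 1 rose, against 5.63% and 6.87%. Among those that fell were Onecut1 (−0.91, standard error 0.24, adjusted p = 0.0114), a factor with a cut domain at under 2 CPM whose value was −0.25 with limma on log2(FPKM + 1), and Hoxd1 (−0.85, 0.069, adjusted p = 1.14e-07), a homeodomain factor of nociceptors. Hoxd1 had 16.2 ± 0.5 CPM in SH Sham, 8.86 ± 0.08 in SH SNA, 14.8 ± 1.4 in EE Sham and 8.30 ± 0.61 in EE + SNA (mean ± SD, n = 3), so that its groups were far apart for their spread. Mafa (−0.79, adjusted p = 0.00970), Pou4f3 (−0.56, adjusted p = 2.24e-04) and Isl2 (−0.55, adjusted p = 4.65e-05), relatives of Maf, Pou4f1 and Isl1, also fell. Mafa was low throughout, with 2.76 ± 0.41 CPM in SH Sham and 1.15 ± 0.36 in SH SNA. In EE its levels lay closer, at 2.09 ± 0.37 in EE Sham and 1.68 ± 0.25 in EE + SNA. Etv1, an ETS factor of proprioceptors, fell by 0.53 on the log2 scale (adjusted p = 2.04e-05).

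Of 25 genes that mark subsets of sensory neurons, 4 fell and 4 rose in the pooled comparison, against 11% and 11.4% of all genes tested, and the median was −0.04. Those that fell included Mrgprd (−0.47, adjusted p = 1.53e-04), a receptor of non-peptidergic nociceptors, Trpm8 (−0.43, adjusted p = 1.48e-04), the cold channel, and Gfra2 (−0.38, adjusted p = 0.00347), the neurturin receptor. Gfra1, the receptor of GDNF, rose by 79.5% (log2 fold change 0.84, standard error 0.048, adjusted p = 2.19e-09), Spp1, which encodes osteopontin, by 39.8% (0.48, adjusted p = 0.00211) and Gfra3, the artemin receptor, by 33.8% (0.42, adjusted p = 2.87e-05). Spp1 spread widely in EE + SNA, with 380 ± 99 CPM (mean ± SD, n = 3), against 255 ± 36 in EE Sham, 314 ± 36 in SH SNA and 239 ± 23 in SH Sham. Which cells of the ganglion gave the Spp1 rise was not tested. In SH SNA 3 of the 25 fell and 3 rose, against 5.17% and 6.06% of all genes. In EE + SNA against SH Sham 3 fell and 2 rose, against 5.63% and 6.87%. None of the other factors and none of the subset genes passed the adjusted threshold in EE Sham against SH Sham or in EE + SNA against SH SNA.

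**Figure D4:**
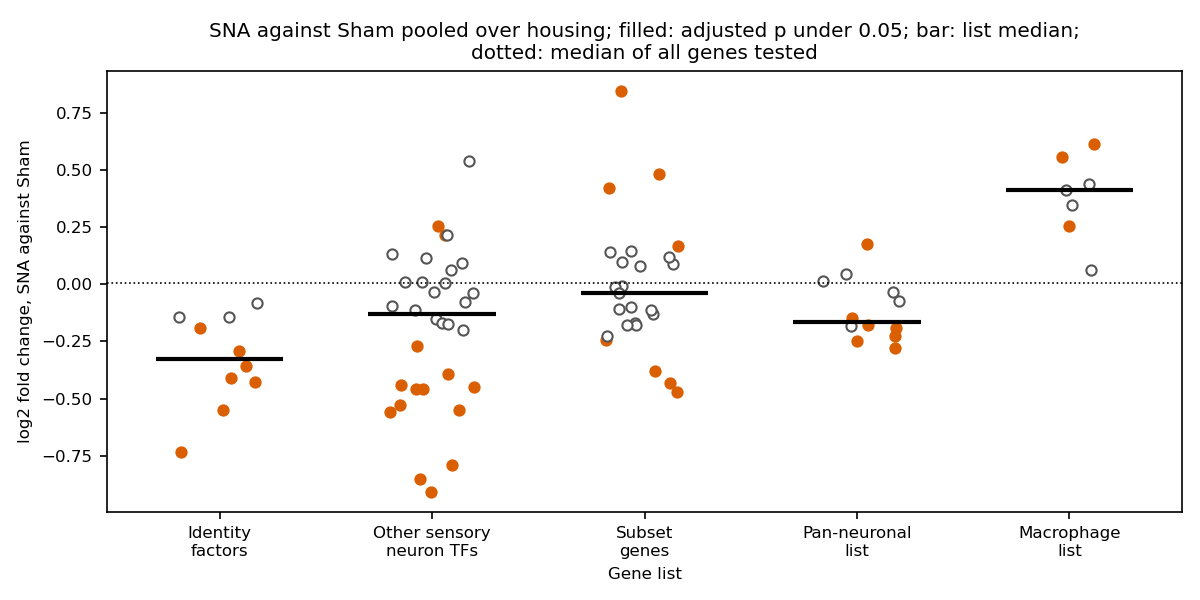
Log2 fold change after SNA, pooled over housing, of each gene tested in 5 lists, where filled points have an adjusted p below 0.05, bars are list medians and the dotted line is the median of all genes tested. The bar of the identity factors lies at −0.33, that of the other transcription factors at −0.13, that of the subset genes at −0.04, that of the pan-neuronal list at −0.16 and that of the macrophage list at 0.41.

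Over the 12 samples, the gene with the most similar log2 CPM, by Pearson's r, was Ankrd29 for Isl1 (0.987), Snap47 for Prdm12 (0.987), 8030462N17Rik for Pou4f2 (0.975), Abcd2 for Shox2 (0.974) and Elfn1 for Prrxl1 (0.963). For the others it was Tmem255a for Pou4f1 (0.947), Gm14412 for Runx1 (0.928), Cmc2 for Runx3 (0.924), AK032387 for Maf (0.90) and Mrpl10 for Tlx3 (0.895). These are the highest of 16238 values each and describe samples that share the SNA difference. Among the 10 factors themselves, Isl1 and Shox2 were most alike (0.935), and the highest r of Maf with another factor was 0.646, with Runx3.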

How the data were processed

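RNAseq of whole DRG was measured in 12 samples, grouped by the labels into 4 groups of 3. The authors aligned paired reads of 100 cycles to mm10 (TopHat2 2.0.12, Bowtie2 2.2.3) and counted them per gene with HTSeq 0.6.0, per the submitters' processing notes, and their deposited counts are whole reads, not normalized. The deposited FPKM were computed by the authors from the same reads. The 5 lines of HTSeq for reads not assigned to a gene, 56.3% to 56.8% of the total, were left out.

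In R 4.3.3, counts were filtered with filterByExpr (10 counts, total 15, 4 groups) and scaled by TMM (factors 0.978 to 1.02) in edgeR 4.0.16. Each comparison of 2 groups was fitted with glmQLFit on its 6 samples and tested with glmQLFTest, two-sided, the pooled injury and interaction on all 12. P-values were adjusted over 16238 genes and called at 0.05. With 3 samples against 3 an exact permutation test of 1 gene cannot give p below 0.1. P-values measure the spread between pools of mice, and replicates differed by more than counting error (chi-square per degree of freedom 3.90 to 8.76). Tests were checked on simulated data. In SH SNA against SH Sham, 52 of 100 simulated log2 changes of size 0.5 were called at the adjusted threshold. The pooled comparison called 74 of 100 and the interaction 21 of 100. Of the genes simulated without a change, 16, 5 and 8 were called, in the same order. In each simulation only 100 genes of size 0.5 and 100 of size 1 were changed among 16238. In the data 1823 genes were called in SH SNA against SH Sham and 3638 in the pooled comparison. The adjustment depends on how many genes change, so the simulated shares called do not carry over to these comparisons.

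The factors and lists were chosen with earlier results of these data known. The genes named are the 10 factors, up to 6 per list that were called in the pooled comparison, by size of change, the injury genes, and the gene most alike to each factor. Stmn2, Rbfox3, Nefh, Rsrc1 and the antisense genes were named after their values were seen. Marker lists were of pan-neuronal and sensory neuron, satellite glia, Schwann, macrophage, neutrophil, lymphocyte, endothelial, fibroblast, sympathetic, skeletal muscle, epidermal and spinal cord genes.

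Pairing by replicate number was examined through correlations of deviations from the group means. For EE Sham and SH Sham the same numbers had r of 0.125 to 0.333 and different numbers −0.331 to 0.197, and they were taken as paired. In the other comparisons at least 1 same-number r was below 0.1. The labels describe no pairing.

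Alternatives were DESeq2 1.42.0, the size factors of DESeq2, the likelihood ratio test, library totals, no filter, 10 counts in every sample, all 12 samples in one fit, the replicate block, limma 3.58.1 on log2(FPKM + 1) or log2(FPKM + 0.1), and each sample left out. Scaling to the summed 12 pan-neuronal genes was added after the data were seen. Genes were placed by GENCODE on GRCm38, and promoters are those of RefSeq, GRCm38.p6. Protein sequences were not used here. Figures were drawn with Matplotlib 3.10.9.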

Additional observations from a re-analysis of the deposited data

Results flagged for a closer look

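The Pou4f2 term for a difference between the housings was singled out because its unadjusted p was just under 0.05, although it did not pass the adjusted threshold. For Pou4f2 the SNA log2 fold change was −1.02 in EE and −0.48 in SH, and the difference of the changes, tested as an interaction of housing and surgery in edgeR over 12 samples, was −0.53 (standard error 0.25, 95% interval −1.05 to −0.00121). Its adjusted p was 1, and 0 of 16238 genes were called for this term. With DESeq2, the likelihood ratio test or the replicate block its unadjusted p was above 0.05 as well. All 3 EE + SNA samples were below all SH SNA samples, as was so for 5.09% of all genes tested. The counts of Pou4f2 were 40 to 99 reads in EE + SNA and 65 to 71 in SH SNA. Groups of 3 samples are too small for a test of single outlying samples. The interaction takes in EE Sham, for which housing and a difference between datasets cannot be told apart.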

How the results depend on the processing

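With the pan-neuronal scaling, added after the data were seen, the log2 fold change of Maf turned to 0.0130 in SH SNA, 0.0161 in EE + SNA and 0.0175 pooled over housing, and that of Runx1 to 0.0621 in EE + SNA, none of them called. The same scaling gave 4 factors called pooled over housing (7 as reported), 4 at the unadjusted threshold in EE + SNA against SH Sham (8) and 0 in EE Sham (1). Of all genes, 29.5% were called in either direction pooled over housing on this scale (22.4% as reported), and 4.90% were called lower (11%). At the unadjusted threshold 38.4% (27.2%) passed in either direction in EE + SNA against SH Sham and 9.31% (2.97%) in EE Sham. In EE + SNA against EE Sham, limma gave 2 called factors with either pseudocount (4 as reported). Leaving out single samples gave 1 to 5. The count was 2 without EE Sham replicate 1 or EE + SNA replicate 3, and 1 without EE Sham replicate 3. Genes called lower in that comparison numbered 378 as reported, 208 and 204 with limma, and 163 to 510 with samples left out. In EE Sham the unadjusted count ran from 1 to 2 with samples left out, the 2 without SH Sham replicate 3. The single interaction at the unadjusted threshold (Pou4f2) became 0 with the likelihood ratio test, DESeq2, 10 counts in every sample, the replicate block or limma with a pseudocount of 1, and 0 to 1 with samples left out. The number of subset genes called in EE + SNA against SH Sham (5) was 9 without a filter or with the pan-neuronal scaling, 3 with the replicate block or with limma at either pseudocount, and 3 to 7 with samples left out, the 3 without SH Sham replicate 1. Of all genes, 24.7% were called there with the pan-neuronal scaling, 9.08% with the replicate block and 12.5% as reported. The other counts stayed within 1.5 times. In EE Sham against SH Sham, taken as paired though the labels describe no pairing, the replicate block changed no call of a factor. Of the values of single genes, 490 of those with all samples kept and 410 of those with 1 sample left out kept direction and call, 16 and 19 lost a call, 16 and 9 gained one, and 4 and 0 changed direction. With 40 to 175 reads per sample, Pou4f2 and Runx3 have the least precise values of the 10.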
